A study of Gallus gallus with 4 samples.

Results

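The solute carriers described here were the 114 genes whose annotated symbol began with SLC and a digit and that were chosen by their measured level, a mean over the 4 arrays of more than 6.28 in log2, which is the 60th percentile over probe sets. The annotation gave 285 such genes a measured value. Of these, 7 (SLC1A3, SLC5A7, SLC12A2, SLC12A5, SLC18A2, SLC18A3 and SLC45A2) were left out by the rule, 164 were under the limit and 114 were kept, out of 13051 genes measured and 6101 above the limit. The lowest gene kept was SLC22A13L, with a mean of 6.30, and the highest gene not kept was SLC16A13, with a mean of 6.27. The mean level chose the members, so their brightness is no result. The symbol also brought in 3 members that are not carriers: SLC4A1AP, a protein that binds a carrier, SLC7A6OS, named for its place opposite SLC7A6, and SLC9A3R1, a scaffold that anchors membrane proteins. The other 111 belong to carrier families.

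RNA came from right eyes of Leghorn/New Hampshire chicks labelled as male (choroid, retinal pigment epithelium, or RPE, and retina together), pooled from 5 chicks for each of 4 Affymetrix chicken arrays. Chicks of 3 groups, FD 0 hr, FD 6 hr and last FD 24 hr, wore an occluder that deprived the right eye of form vision (form deprivation, FD), and tissue was taken 0, 6 or 24 hr after its removal, while control chicks wore no lens. The labels give 7 days of deprivation and the protocol 10 days. The age at collection was post-hatch day 11 for control, FD 0 hr and FD 6 hr chicks and day 12 for FD 24 hr chicks. Age therefore cannot be told apart from recovery time where FD 24 hr is set against another group. Each group is 1 pool on 1 array, so there is neither a test nor an error between replicates, the number of arrays limits the precision, and each difference is between 2 pools.

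Solute carriers are membrane proteins that move sugars, amino acids, transmitters, metals, nucleotides and other small molecules across the cell surface or into organelles, mostly down a gradient or coupled to an ion. In the eye, glucose crosses the blood-retina barrier through facilitative glucose carriers, lactate leaves the outer retina through monocarboxylate carriers of the RPE, glycine and GABA are cleared and packed into vesicles by their own carriers, and photoreceptors extrude calcium through exchangers that also carry sodium and potassium. The inner membrane of mitochondria holds a large family of its own, which exchanges ADP, ATP, phosphate and metabolites.

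Array medians over all probe sets were 5.73 to 5.74. The hybridisation controls, added just before hybridisation, differed by -0.17 to -0.31 for FD 0 hr vs control, by -0.72 to -2.82 for FD 6 hr vs FD 0 hr and by 0.012 to 0.21 for FD 24 hr vs FD 6 hr. The poly-A controls, added before labelling, differed by 0.54 to 0.71 for FD 0 hr vs control and by -1.10 to -2.09 for FD 6 hr vs FD 0 hr. They differed by -0.0067 to -0.39 for FD 24 hr vs FD 6 hr and by -1.10 to -2.48 for FD 24 hr vs FD 0 hr. By these controls the arrays fell into pairs, control with FD 0 hr and FD 6 hr with FD 24 hr. A difference between these pairs of arrays cannot be told apart from the treatment where FD 6 hr or FD 24 hr is set against control or FD 0 hr. The part of these control signals in the differences was not tested. The female-specific gene HINTW was at 5.52 in the FD 0 hr pool, 5.37 in the FD 6 hr pool and 5.34 in the FD 24 hr pool, against 9.36 in the control pool, and the median over 269 Z-linked genes was 0.46 for FD 0 hr vs control, so that a difference in the sex of the pooled chicks cannot be told apart from the treatment in any difference from control. Among the tissue markers, RPE65 of the RPE was at 12.75 to 13.32 and GNAT2 of cones at 12.16 to 12.56 on the 4 arrays. Of the vessel genes, CDH5 was above the limit, at 7.90 to 9.44, while KDR, PECAM1 and VWF were under it. In this mixed tissue, fewer cells of a type and less RNA per cell cannot be told apart.

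Each gene was read as the median of its probe sets, of which the members had 238 in all, with 37 members on a single probe set and 77 on more. Probe sets of different genes bind with different strength, so values are followed across arrays for each gene and not ranked between genes. Differences are written as the first group vs the second and are the log2 value of the first minus that of the second. A difference of at least 1, which is at least 2-fold, was counted as large. The only repeated measure of a difference was its spread over the bright probe sets of a gene. These probe sets share the RNA pool and the array, so their spread, given as an SD, holds no error between pools. It is a spread of single probe sets, while the gene values are medians that also take in dim ones. For FD 0 hr vs control this SD was 0.46 over 46 members and 0.43 over 2159 genes, and for FD 24 hr vs FD 6 hr it was 0.34 and 0.26.

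In the FD 0 hr pool, 6 of the 114 members differed from the control pool by at least 1, which is 5.26% of them, against 9.15% of all genes above the limit. The large differences were higher for SLC6A2 and SLC4A1AP, 2 members against 4.57% of all genes, and lower for SLC6A9, SLC2A1, SLC9A7 and SLC32A1, 4 members against another 4.57% of all genes. Read by the probe set of highest mean in place of the median, which keeps 172 solute carriers above the limit, 14 (8.14%) differed by at least 1, against 10.7% of 8389 genes. In all, 43 members were higher in the FD 0 hr pool, 68 lower and 3 equal, with a median of -0.078 against -0.050 over all genes above the limit. Of all genes above the limit, 45.3% were higher and 54% lower. At a difference of 0.5, 7 members were higher and 22 lower, where 15.9% of all genes were higher and 17.8% lower.

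SLC6A9 is the glycine carrier GlyT1, which takes up glycine at the surface of glycinergic amacrine cells and glia. Its single probe set is of a design prone to read several transcripts, and measured 10.72 in the control pool, 8.79 in the FD 0 hr pool, 9.80 in the FD 6 hr pool and 10.23 in the FD 24 hr pool. Control was the highest and FD 0 hr the lowest of the 4, and the difference of -1.93 between them had the largest size among the members in any of the 6 differences. SLC6A9 was also the only member with a value at least 1 higher in the FD 6 hr pool than in the FD 0 hr pool, by 1.01.

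SLC32A1 is the vesicular carrier that loads GABA and glycine into synaptic vesicles of inhibitory neurons. Its bright probe set measured 11.81 in the control pool, 10.34 in the FD 0 hr pool, 11.12 in the FD 6 hr pool and 11.31 in the FD 24 hr pool. A second probe set, under the limit, measured 6.28, 5.74, 6.05 and 6.17 on the arrays in that order. Both were lowest in the FD 0 hr pool and highest in the control pool. The bright probe set differed by -1.47 for FD 0 hr vs control and the dim by -0.54, so that the gene value, at -1.005, lay just past 1. GAD1, which makes GABA, was at 12.02 in the FD 0 hr pool and at 12.67 in the control pool, a difference of -0.65.

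Markers of amacrine and horizontal cells, ganglion cells and Müller glia were mostly lower on the same array. All 6 measured markers of amacrine and horizontal cells, GAD1 among them, were lower in the FD 0 hr pool than in the control pool. None was under the limit. Their mean level was 9.13 in the FD 0 hr pool, 9.77 in the FD 6 hr pool and 9.99 in the FD 24 hr pool, against 10.20 in the control pool. Of 5 measured ganglion cell markers, 4 were lower, with a mean of 8.76 in the FD 0 hr pool and 9.72 in the control pool, and all 4 Müller glia markers were lower, at 11.10 against 11.60. The part of these in the values of SLC6A9 and SLC32A1 was not tested.

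SLC2A1 is the glucose carrier GLUT1, which brings glucose across the RPE into the retina. Its single probe set measured 13.00 in the control pool, 11.86 in the FD 0 hr pool, 12.45 in the FD 6 hr pool and 12.64 in the FD 24 hr pool. The order of the arrays was that of SLC6A9, with FD 0 hr lowest and control highest. SLC2A1 differed by -1.14 between these 2 pools. Of the 6 measured RPE markers, 3 were higher in the FD 0 hr pool than in the control pool, 2 lower and 1 equal, with a mean of 9.09 against 9.10. Of 5 measured vessel and blood markers, 4 were higher and HBA1 was lower by -0.46, with a median of 0.10. The largest difference among them was that of CDH5, at 9.44 in the FD 0 hr pool and 8.09 in the control pool. KDR, PECAM1 and VWF, all under the limit, differed by 0.04, 0.10 and 0.33. All 4 Müller glia markers were lower in the FD 0 hr pool, with a mean of 11.10 against 11.60. Of 4 measured photoreceptor markers, 3 were lower and 1 higher, with a mean of 10.61 against 10.94. The part of these cell types in the value of SLC2A1 was not tested.

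SLC9A7 is a sodium/proton exchanger of the Golgi. The gene value measured 7.24 in the control pool, 6.18 in the FD 0 hr pool, 6.74 in the FD 6 hr pool and 6.49 in the FD 24 hr pool. All 5 of its probe sets were lower in the FD 0 hr pool than in the control pool, the 3 bright ones by -1.22, -1.06 and -0.68 and the 2 under the limit by -0.14 and -0.11. The size of this difference therefore depended on the probe set.

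SLC6A2 is the noradrenaline carrier of sympathetic and adrenergic neurons. Its single probe set measured 6.04 in the control pool, 7.17 in the FD 0 hr pool, 7.45 in the FD 6 hr pool and 6.10 in the FD 24 hr pool. Control and FD 24 hr were close together and FD 0 hr and FD 6 hr above them, by 1.13 for FD 0 hr vs control and by 1.41 for FD 6 hr vs control. The values in control and FD 24 hr were themselves under the limit of 6.28, so SLC6A2 was kept through its values in FD 0 hr and FD 6 hr. Its differences between the pools above the limit and those under it are therefore partly set by how members were chosen. Of 6 measured fibroblast and smooth muscle markers, 4 were higher in the FD 0 hr pool than in the control pool, and COL1A1 was lower by -1.09. The mean of the 6 was 7.89 against 7.47, with ACTA2, COL1A2 and LUM under the limit. It was 7.67 in the FD 6 hr pool and 7.52 in the FD 24 hr pool. Of 5 melanocyte markers, 4 were higher and PMEL was lower by -0.96, with a mean of the 5 of 10.56 against 9.48. Their mean was 10.02 in the FD 6 hr pool and 10.42 in the FD 24 hr pool. Of 5 measured vessel and blood markers, 4 were higher and HBA1 was lower by -0.46, with a median of 0.10. The part of these markers in the value of SLC6A2 was not tested.

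SLC4A1AP, which is not a carrier, counted as higher by 1.35. Its probe set with the largest difference measured 8.19 in the FD 0 hr pool and 6.42 in the control pool. The remaining bright probe sets were lower, at 7.77 and 7.87 in the FD 0 hr pool against 7.88 and 8.08 in the control pool. The median was taken from different probe sets on the 2 arrays, and the difference was -0.11 when the differences of the 5 probe sets were taken first.

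**Figure D1:**
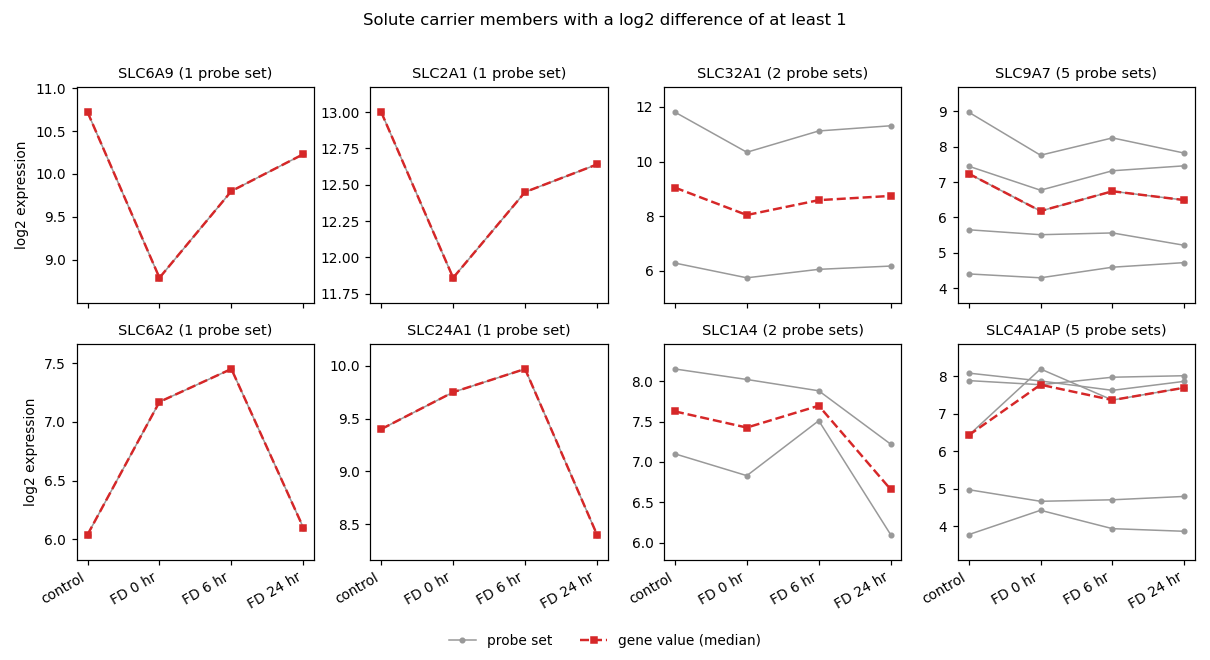
Log2 expression of the 8 members with a difference of at least 1 for FD 0 hr vs control, FD 6 hr vs FD 0 hr or FD 24 hr vs FD 6 hr, on 4 arrays (control, then FD 0 hr, then FD 6 hr, then FD 24 hr, from left to right), with grey lines for single probe sets and red squares for the gene value (their median); each panel has its own axis. SLC6A9, SLC2A1, SLC32A1 and SLC9A7 are lowest in the FD 0 hr pool, SLC6A2 is high in FD 0 hr and FD 6 hr, and SLC24A1 and SLC1A4 are lowest in the FD 24 hr pool.

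Amino acid and transmitter carriers had 20 members, of which 7 were higher and 13 lower in the FD 0 hr pool than in the control pool, with a median of -0.15. SLC7A4, a relative of the cationic amino acid carriers, was at 7.97 in the FD 0 hr pool and 8.72 in the control pool, and reached 8.70 in the FD 6 hr pool and 8.68 in the FD 24 hr pool. SLC6A8, which takes up creatine, was at 7.82 in the FD 0 hr pool, 7.78 in the FD 6 hr pool and 8.01 in the FD 24 hr pool, all below the 8.49 of the control pool. The glutamate carriers went different ways: SLC1A7 (EAAT5), found in photoreceptor and bipolar terminals, was lower in the FD 0 hr pool at 6.93, against 7.45 in the control pool, while SLC1A2 (EAAT2) was higher at 10.23, against 9.90.

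The taurine carrier SLC6A6, which supplies an amino acid that photoreceptors need, did not give a single answer. Its brightest probe set measured 9.53 in the control pool, 8.30 in the FD 0 hr pool, 8.75 in the FD 6 hr pool and 9.76 in the FD 24 hr pool. The next measured 9.38, 8.73, 9.31 and 7.94 on the arrays in that order. Both were lower in the FD 0 hr pool than in the control pool, by -1.23 and -0.65, but for FD 24 hr vs FD 6 hr they had opposite signs, 1.01 and -1.37. CDO1, an enzyme of taurine synthesis, was at 10.22 in the FD 0 hr pool and 8.91 in the control pool.

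SLC38A1, which carries glutamine, was split for FD 0 hr vs control over its 7 probe sets. A probe set of middle brightness was at 7.33 in the FD 0 hr pool and 8.35 in the control pool, a difference of -1.02, while its brightest was at 11.36 and 11.07, a difference of 0.29. The related SLC38A2 had a bright probe set at 10.38 in the FD 0 hr pool and 9.64 in the control pool and a dim one at 5.69 and 6.21. The gene value, taken over probe sets of opposite sign, differed by -0.49 for SLC38A1 and 0.11 for SLC38A2.

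Sugar, monocarboxylate and anion carriers had 16 members, 6 higher, 9 lower and 1 equal in the FD 0 hr pool against the control pool, with a median of -0.035. The gene values of the lactate carriers were all lower. SLC16A8 (MCT3), which sits on the choroidal face of the RPE, was at 12.09 in the FD 0 hr pool and 12.65 in the control pool. SLC16A1 (MCT1) had its brightest probe sets at 11.80 and 9.63 in the FD 0 hr pool, against 12.54 and 10.96 in the control pool. Another above the limit was at 6.79 against 6.81. The bright probe set of SLC16A3 (MCT4) was at 9.33, against 9.80, and its dim one at 4.12, against 4.05.

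In the FD 24 hr pool the lactate carriers lay nearer the control pool, with SLC16A8 at 12.62, the brightest probe sets of SLC16A1 at 12.19 and 10.44 and that of SLC16A3 at 9.83. BSG, the chaperone that brings MCT1, MCT3 and MCT4 to the membrane, was at 9.71 in the FD 0 hr pool, 9.73 in the FD 6 hr pool and 9.19 in the FD 24 hr pool, all below the 10.39 of the control pool. SLC2A13, which carries myo-inositol with protons, was at 8.99 in the FD 0 hr pool and 9.61 in the control pool. The gene values of all 4 SLC13 members were higher in the FD 0 hr pool than in the control pool, by 0.53 for the dicarboxylate carrier SLC13A3, 0.33 for the citrate carrier SLC13A5, and 0.32 for each of the sulphate carriers SLC13A1 and SLC13A4. For SLC13A5 this rested on 1 of 3 probe sets, the others differing by 0.01 and -0.01.

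Carriers of inorganic ions and pH had 16 members, 6 higher, 9 lower and 1 equal in the FD 0 hr pool, with a median of -0.043. SLC4A1 (band 3), the anion exchanger of red blood cells, was at 6.12 in the FD 0 hr pool, under the limit, and 6.99 in the control pool. HBA1, a red blood cell gene, was also lower there, at 12.09 against 12.55, but at 12.94 in the FD 6 hr pool and 13.01 in the FD 24 hr pool it was above the control, where SLC4A1 was at 6.56 and 6.44. The remaining SLC4 members differed from control by -0.29 to 0.060 at FD 0 hr. The lowest of these, the anion exchanger SLC4A2, had its brightest probe set at 6.51 in the FD 0 hr pool and 7.59 in the control pool, a difference of -1.08, while the others differed by 0.08 and 0.03. SLC24A5, the exchanger of melanosomes, was at 8.22 in the FD 0 hr pool and 8.17 in the control pool.

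Photoreceptor exchangers were read by 1 probe set each, both of the design prone to read several transcripts. SLC24A2, the exchanger of cones, measured 10.97 in the control pool, 10.43 in the FD 0 hr pool, 10.91 in the FD 6 hr pool and 11.18 in the FD 24 hr pool, while SLC24A1, the exchanger of rods, measured 9.40, 9.75, 9.97 and 8.40 on the arrays in that order. The cone gene was lowest in the FD 0 hr pool and highest in the FD 24 hr pool, and the rod gene was highest in the FD 6 hr pool and lowest in the FD 24 hr pool. Of the 4 measured photoreceptor markers, 3 were lower in the FD 0 hr pool than in the control pool and 3 were higher in the FD 24 hr pool than in the FD 6 hr pool, where their mean was 11.19 in the FD 24 hr pool and 10.75 in the FD 6 hr pool.

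Metal and haem carriers had 11 members, 3 higher and 8 lower in the FD 0 hr pool, with a median of -0.16. SLC30A5, which loads zinc into the secretory pathway, was at 9.39 in the FD 0 hr pool and 8.50 in the control pool, with probe sets higher by 1.38 and 0.40. SLC41A2, a magnesium carrier, was at 6.70 in the FD 0 hr pool and 6.49 in the FD 6 hr pool. It was under the limit in the control pool, at 6.04, and in the FD 24 hr pool, at 6.14. SLC41A2 was therefore kept through its FD 0 hr and FD 6 hr values. Its differences between the pools above the limit and those under it are partly set by how members were chosen. The bright probe set of SLC41A2 was at 8.57 in the FD 0 hr pool against 7.55 in the control pool. The zinc importer SLC39A3 was lower, at 7.00 in the FD 0 hr pool and 7.79 in the control pool, with probe sets at -1.24 and -0.33.

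Mitochondrial carriers of the SLC25 family had 19 members, 10 higher, 8 lower and 1 equal in the FD 0 hr pool, with a median of 0.010. SLC25A24, which exchanges ATP-Mg for phosphate, was at 8.87 in the FD 0 hr pool and 8.00 in the control pool, with probe sets higher by 1.01 and 0.73. SLC25A12, the aspartate/glutamate carrier aralar, was at 10.13 in the FD 0 hr pool, 10.16 in the FD 6 hr pool and 10.03 in the FD 24 hr pool, all above the 9.70 of the control pool. SLC25A17, a carrier of peroxisomes, was lower, at 8.97 in the FD 0 hr pool and 9.70 in the control pool.

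The ADP/ATP carriers, which pass ATP out of mitochondria, differed among themselves. SLC25A5 (ANT2) measured 11.52 in the control pool, 11.06 in the FD 0 hr pool, 12.00 in the FD 6 hr pool and 11.33 in the FD 24 hr pool. SLC25A6 (ANT3) was at 11.87 in the FD 0 hr pool, 11.81 in the FD 6 hr pool and 11.72 in the FD 24 hr pool, against 11.62 in the control pool. SLC25A5 stood out in the FD 6 hr pool and SLC25A6 moved by no more than 0.26 over the 4 arrays. However, SLC25A5 was read by 1 probe set, of the design prone to read several transcripts, which limits this comparison. SLC25A4 (ANT1) was under the limit, at 5.06 to 5.26.

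Nucleoside and nucleotide sugar carriers had 15 members and the lowest class median, -0.24, with 2 higher and 13 lower in the FD 0 hr pool than in the control pool. The same counts, 2 higher and 13 lower, were found for FD 6 hr vs control (median -0.18) and for FD 24 hr vs control (median -0.10). These differences share the control pool, and no member of the class reached a difference of 1. SLC29A1 (ENT1), which passes nucleosides such as adenosine, was at 6.64 in the FD 0 hr pool, 7.12 in the FD 6 hr pool and 7.34 in the FD 24 hr pool, against 7.46 in the control pool. Among the Golgi carriers, SLC35B2, which supplies the sulphate donor for proteoglycans, was at 7.13 in the FD 0 hr pool, 7.22 in the FD 6 hr pool and 7.44 in the FD 24 hr pool, against 7.61 in the control pool. These are the values of the second of its 3 probe sets, and the brightest was at 8.48 in the FD 0 hr pool and 8.36 in the control pool. The carriers of GDP-fucose, SLC35C1, and of UDP-sugars, SLC35D1, differed by -0.24 each for FD 0 hr vs control. SLC35A1, which carries CMP-sialic acid, and SLC35E2B were the 2 members higher, by 0.12 and 0.16. Of the 15 members, only SLC29A1, SLC35B2 and SLC35E4 had a difference larger in size than the probe set SD of 0.43, and the probe sets of SLC35B2 did not share a sign.

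Carriers of vitamins, lipids and organic ions had 14 members, 8 higher and 6 lower in the FD 0 hr pool, with a median of 0.045. SLC27A4, a fatty acid carrier, was at 7.50 in the FD 0 hr pool and 8.23 in the control pool, and its probe sets differed by -0.72 and -0.73. SLC44A3, of the choline carrier-like family, was at 7.54 in the FD 0 hr pool, 7.44 in the FD 6 hr pool and 6.73 in the FD 24 hr pool, against 7.10 in the control pool. SLC44A1, the choline carrier, had a probe set at 6.83 in the FD 0 hr pool and 7.62 in the control pool, and another at 6.95 and 6.48. The probe sets of the vitamin C carrier SLC23A2 also differed in sign, with bright ones at 0.42, 0.11 and -0.69.

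Among the members that are not carriers, SLC9A3R1 was at 8.32 in the FD 0 hr pool and 9.22 in the control pool, with probe sets at -0.99 and -0.81. SLC7A6OS was at 7.13 against 7.35. With SLC4A1AP, 1 of the 3 was higher and 2 were lower.

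**Figure D2:**
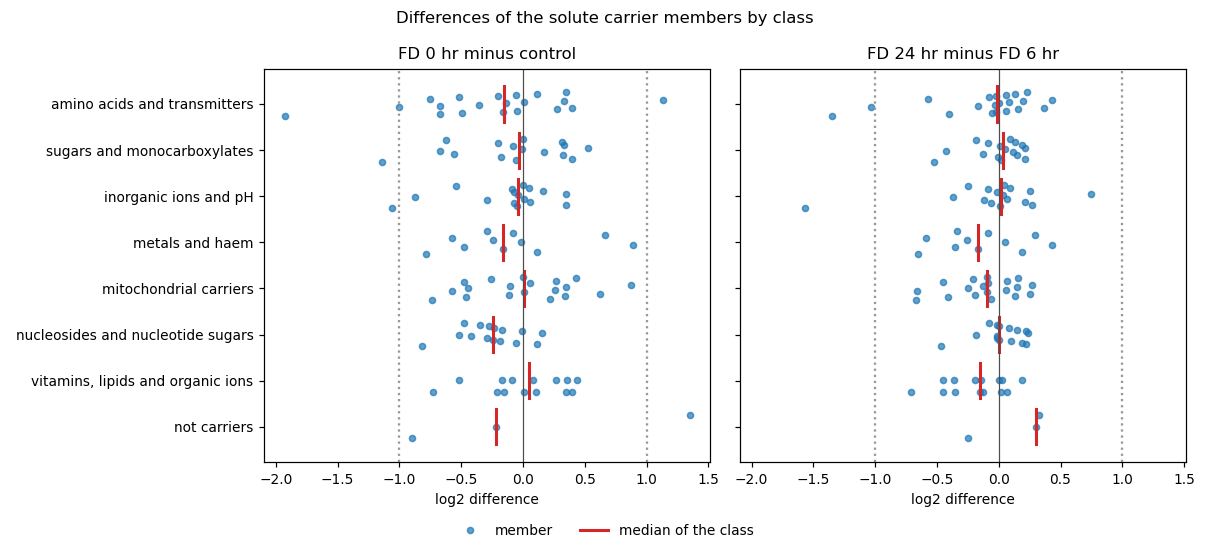
Log2 differences of the 114 members for FD 0 hr vs control (left) and FD 24 hr vs FD 6 hr (right) by class, with 1 point per member, a red bar at the class median and dotted lines at -1 and 1. The class medians lie between -0.24 and 0.045 on the left and between -0.17 and 0.30 on the right, and the points past the dotted lines are 6 on the left and 3 on the right.

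For FD 6 hr vs FD 0 hr, SLC6A9 was the 1 member higher by at least 1 and none was lower. That is 0.877% of the members, against 1.29% of all genes above the limit (0.836% higher and 0.459% lower). In all, 71 members were higher in the FD 6 hr pool than in the FD 0 hr pool, 42 lower and 1 equal, with a median of 0.11 against 0.040 over all genes. After SLC6A9, the widest positive differences whose probe sets shared a sign were 0.94 for SLC25A5, 0.73 for SLC7A4, 0.59 for SLC2A1, 0.56 for SLC9A7, 0.55 for SLC32A1 and 0.52 for SLC1A7. FD 0 hr enters this difference and that from control, so the values of these genes here are no second observation. On the negative side stood SLC1A2 and the mitochondrial carrier of basic amino acids SLC25A29, each at -0.54, the neutral amino acid carrier SLC43A2 at -0.53 and SLC25A24 at -0.43.

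For FD 24 hr vs FD 6 hr, which shares no array with FD 0 hr vs control, 3 members were lower by at least 1 and none higher. That is 2.63% of the members, against 1.25% of all genes above the limit (0.311% higher and 0.934% lower). SLC6A2, 1 of these 3, was kept only through its high FD 0 hr and FD 6 hr values. Its place in this count is therefore partly set by the choice of members. The members' median was -0.0075 and that of all genes -0.030. Differences of 0.5 or more were found for 1 member higher and 10 lower, against 2.85% and 6.87% of all genes.

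The largest was SLC24A1, at 8.40 in the FD 24 hr pool and 9.97 in the FD 6 hr pool, a difference of -1.57. SLC6A2 was next, at 6.10 in the FD 24 hr pool, under the limit, and 7.45 in the FD 6 hr pool, a difference of -1.35. SLC1A4 (ASCT1), which exchanges serine, alanine and other neutral amino acids, had 2 probe sets, at 7.22 and 6.10 in the FD 24 hr pool against 7.88 and 7.51 in the FD 6 hr pool. Both of its probe sets were lowest in the FD 24 hr pool, and the gene value of -1.04 rested mainly on the dimmer, since the brighter differed by -0.66.

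Other members that were lower in the FD 24 hr pool than in the FD 6 hr pool included SLC44A3 by -0.71, SLC25A5 by -0.67, SLC25A43 by -0.66, the zinc carriers SLC30A9 by -0.65 and SLC30A4 by -0.59, and SLC13A3 by -0.52. Higher were SLC6A9 at 0.43, SLC43A3 at 0.37, SLC9A3R1 at 0.30 and SLC24A2 at 0.27. The member with the highest difference, the exchanger SLC24A4 at 0.75, had bright probe sets at 7.49 and 6.78 in the FD 24 hr pool, against 6.03 and 6.13 in the FD 6 hr pool. At FD 0 hr the second was at 6.57, against 6.64 in control, and the first at 7.49, against 6.71.

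Across the whole of recovery, FD 24 hr vs FD 0 hr, SLC6A9 was higher by 1.44 and SLC24A1 and SLC6A2 were lower, by -1.35 and -1.07. These 3 members are 2.63% of the 114, against 4.18% of all genes above the limit (1.75% higher and 2.43% lower). In all, 61 members were higher, 52 lower and 1 equal, with a median of 0.048 against 0.015. Among all genes, 51% were higher and 48% lower. The most one-sided class was that of inorganic ions and pH, with 13 higher and 3 lower (median 0.11). Next came vitamins, lipids and organic ions, with 4 higher and 10 lower (median -0.23). The probe set SD for this difference was 0.37 over 2159 genes. Some of the 13 were far under it, such as SLC12A9 at 0.03 and SLC4A11 at 0.05. Next to SLC6A9, SLC2A1 was higher by 0.78, SLC24A2 by 0.75, SLC7A4 by 0.71, and SLC29A1 and SLC32A1 by 0.70 each.

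Against the control pool, FD 6 hr had 1 large difference, SLC6A2 at 1.41, which is 0.877% of the members against 3% of all genes (1.82% higher and 1.18% lower). FD 24 hr had 2, SLC4A1AP, which is not a carrier, at 1.27, and SLC24A1, at 8.40 in the FD 24 hr pool and 9.40 in the control pool, which is 1.75% of the members against 2.41% of all genes (0.983% higher and 1.43% lower). For SLC4A1AP 1 of 5 probe sets differed by 1.27 and the median of the probe set differences was 0.09. The members' medians were -0.010 for FD 6 hr vs control and -0.045 for FD 24 hr vs control. Over all genes these were 0 and -0.040. For FD 24 hr vs control 45 members (39.5%) were higher and 68 (59.6%) lower, against 43.6% and 55.3% of all genes. SLC6A9 was still at -0.92 in the FD 6 hr pool and -0.49 in the FD 24 hr pool relative to control, and SLC2A1 at -0.55 and -0.36.

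**Figure D3:**
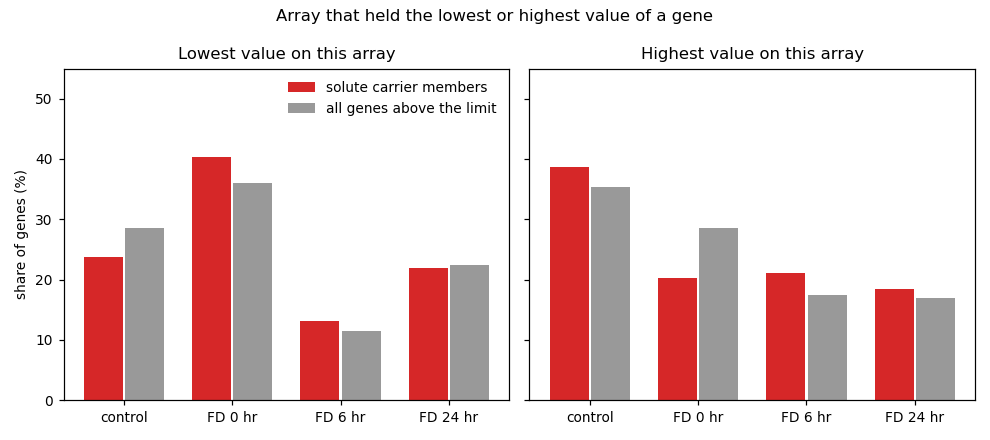
Share of genes, in percent, whose lowest (left) or highest (right) value of the 4 lay on the array named below the bars, for the 114 members (red) and the 6101 genes above the limit (grey). The FD 0 hr array held the lowest value for 40.4% of the members and 36% of all genes, and the highest value for 20.2% of the members and 28.5% of all genes.

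Counted by array, 46 members (40.4%) had their lowest value in the FD 0 hr pool and 23 (20.2%) their highest, against 36% and 28.5% of all genes above the limit. The control array held the lowest value of 27 members (23.7%) and the highest of 44 (38.6%), against 28.5% and 35.3%. The FD 6 hr array held the fewest lowest values among the members and among all genes, 13.2% and 11.4%. In the FD 24 hr pool 21.9% of the members were lowest and 18.4% highest, against 22.5% and 16.9%.

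Of the 7 members on the Z chromosome, 6 were higher in the FD 0 hr pool than in the control pool (median 0.27, the highest SLC30A5 at 0.89), and the exception was SLC24A2 at -0.54. Over all Z genes 80.3% were higher. For FD 6 hr vs FD 0 hr, which leaves the control out, 3 of the 7 were higher and 4 lower.

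Among 47 carriers listed for their roles in the retina, 39 were measured and 22 were members. In the FD 0 hr pool 8 of the 22 were higher and 14 lower than in the control pool, with a median of -0.20. Of all genes above the limit, 45.3% were higher and 54% lower. In the FD 6 hr pool 16 were higher and 6 lower than in the FD 0 hr pool, against 55.8% and 43.2% of all genes. Those of the 22 with a difference of at least 1 for FD 0 hr vs control were 3, SLC6A9, SLC2A1 and SLC32A1. All were lower, as were 4.57% of all genes by at least 1. For FD 24 hr vs FD 6 hr they were SLC24A1 and SLC1A4, both lower, against 0.934% of all genes. The list was chosen with earlier results of these data known. Of 12 measured genes whose proteins work with carriers, 3 were higher and 9 lower in the FD 0 hr pool than in the control pool (median -0.48). Of all genes above the limit, 45.3% were higher and 54% lower. None of the 12 was lower by at least 1, while CA4 was higher by 1.82 and CDO1 by 1.31. By at least 1, 4.57% of all genes were higher. The sodium pump subunit ATP1B1, whose gradient drives many carriers, was at 10.72 in the FD 0 hr pool and 11.25 in the control pool. Another subunit, ATP1B3, was at 11.51 and 11.59. CA4, a carbonic anhydrase of capillary walls, was at 10.10 in the FD 0 hr pool, 8.81 in the FD 6 hr pool and 8.19 in the FD 24 hr pool, against 8.28 in the control pool. The vessel gene CDH5 was at 9.44 in the FD 0 hr pool and 8.09 in the control pool. KDR, PECAM1 and VWF, all under the limit, differed by 0.04, 0.10 and 0.33, and the blood gene HBA1 by -0.46. The part of vessel cells in the value of CA4 was not tested.

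Over the 4 arrays, the gap between the highest and the lowest value of a member had a median of 0.41, against 0.47 over all genes above the limit. It was under 0.25 for 25 members (21.9%, against 18.8% of all genes) and at least 1 for 8 (7.02%, against 12% of all genes). Among the steadiest were the urate carrier SLC2A9, at 6.32 to 6.33, and SLC4A11, an ion carrier of the corneal endothelium, at 7.72 to 7.77. SLC2A9 lay close to the limit of 6.28, where signal near background hides differences.

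Agreement between probe sets limits the single values. Of the 77 members with several probe sets, 40 had probe sets of the same sign for FD 0 hr vs control, 35 for FD 6 hr vs FD 0 hr and 30 for FD 24 hr vs FD 6 hr. In 8 of 17 members with an odd number of 3 or more probe sets, the median came from different probe sets on different arrays. Of 52 members with 2 probe sets, 31 had 1 under the limit, and there the gene value averages a bright and a dim signal. For 17 members the only probe set was of the design prone to read several transcripts. Among them were SLC6A9, SLC24A1, SLC24A2, SLC25A5, SLC25A12, SLC1A2 and SLC4A1.

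**Figure D4:**
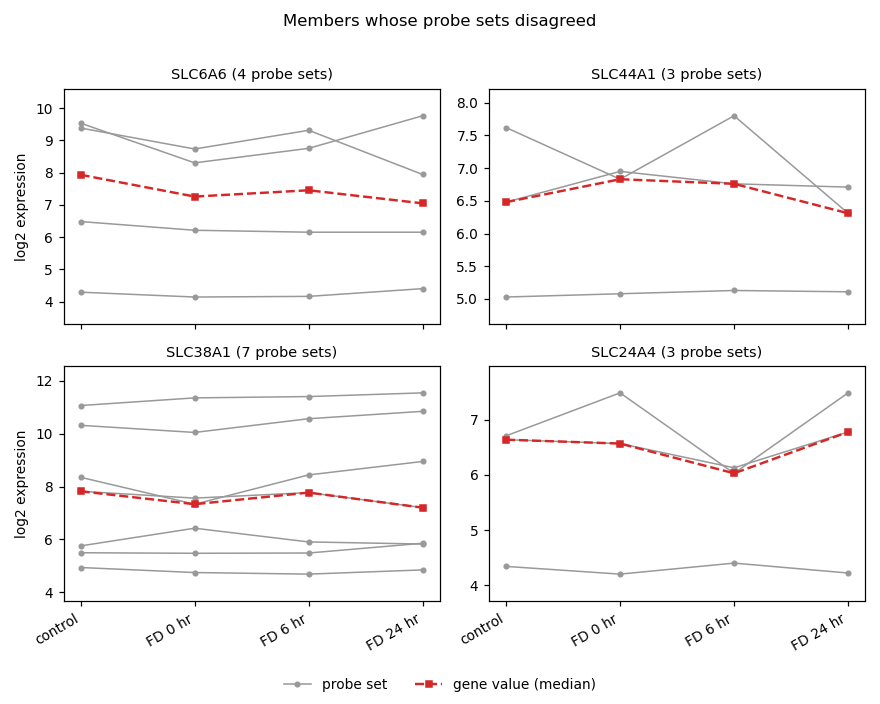
Log2 expression of SLC6A6, SLC44A1, SLC38A1 and SLC24A4 on 4 arrays (control, then FD 0 hr, then FD 6 hr, then FD 24 hr, from left to right), with grey lines for single probe sets and red squares for their median; each panel has its own axis. The bright probe sets of SLC6A6 part in the FD 24 hr pool (9.76 and 7.94), and those of SLC44A1 are farthest apart in the control pool (7.62 and 6.48) and the FD 6 hr pool (7.80 and 6.76).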

How the data were processed

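The authors hybridised 1 pooled RNA sample per group to Affymetrix chicken arrays, summarised them by Robust Multichip Average (RMA) in Affymetrix Expression Console, and deposited log2 expression values with 1 value per probe set. MAS5 also stands in the processing notes of the submitters, and the methods describe a run of these arrays alone and a run joined with arrays of another series, of which the second was chosen for presentation. Which of these runs gave the deposited values was not settled here. No further normalisation was applied to the deposited values.

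Genes were assigned through the annotation of the platform, which gave 1 symbol for 27178 of 38535 probe sets and several for 177, and only the first were used. RefSeq (GRCg7b) served for names and chromosomes only and held 112 of the 114 members. Differences are the log2 value of the first array named minus that of the second, and the share of all genes past the same difference was counted over the 6101 genes above the limit. Classes follow the carrier family, so that SLC13, for instance, stands with the sugars and monocarboxylates.

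Members, lists and markers were chosen with earlier results of these data known. Named members were the 12 largest in each direction among those whose probe sets shared a sign, for FD 0 hr vs control, FD 6 hr vs FD 0 hr, FD 24 hr vs FD 6 hr and FD 24 hr vs FD 0 hr, the 3 of widest range in each class, and members of the list of retinal carriers. Partner genes and the remaining transporters were named for a difference of 1 or where a member needed them, and the rest of the members named were chosen after their values were seen.

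Alternatives were quantile normalisation, centring, other summaries and choices of probe sets, other limits, another size for a large difference, the Z and W chromosomes left out, and the 7 genes put back. The step that counts large differences was run on simulated data in which chosen genes had been raised or lowered. That run checked the counting only and is no measure of how firm the counts in the real data are. Python 3.11.15 was used with pandas 2.3.3, NumPy 2.4.6 and Matplotlib 3.10.9.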

Additional observations from a re-analysis of the deposited data

How the results depend on the processing

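With 1 array per group no array could be left out and no error between pools is known, and dim probe sets compress differences. No paired analysis was possible because each group holds 1 sample. Counts of members with a difference of at least 1 are given in the order FD 0 hr vs control, FD 6 hr vs FD 0 hr, FD 24 hr vs FD 6 hr, FD 24 hr vs FD 0 hr, FD 6 hr vs control and FD 24 hr vs control, and were 6, 1, 3, 3, 1 and 2. With the probe set of highest mean they were 14, 2, 6, 6, 3 and 6, over 172 members. This is 8.14%, 1.16%, 3.49%, 3.49%, 1.74% and 3.49% of them. The shares of all genes above the limit were 10.7%, 1.34%, 1.43%, 4.77%, 3.17% and 2.52%, in the same order. At a difference of 0.5 they were 29, 12, 11, 19, 14 and 9, and at 1.5 they were 1, 0, 1, 0, 0 and 0. At 0.5 this is 25.4%, 10.5%, 9.65%, 16.7%, 12.3% and 7.89% of the members. The shares of all genes above the limit were 33.7%, 11.9%, 9.72%, 22%, 20.1% and 15.8%. At 1.5 the shares of all genes were 2.34%, 0.262%, 0.229%, 0.738%, 0.475% and 0.393%. Mean of probe sets, 70th percentile limit and median of the probe set differences each left 4 for FD 0 hr vs control. These were 3.39%, 4.94% and 3.51% of the members, against 7.69%, 10.7% and 8.2% of all genes. After dropping probe sets prone to read several transcripts it was also 4, 4.60% against 8.65%. With the limit at the 50th percentile or no limit it was 7, 4.58% and 2.52% against 7.67% and 4.87%. For FD 24 hr vs control the count was 1, SLC4A1AP, with quantile normalisation. It was 1, SLC24A1, with the mean of probe sets, members without the 3 that are not carriers, members whose probe sets shared a sign, and the median of the probe set differences. It was 0 after dropping probe sets prone to read several transcripts. In these settings, quantile normalisation included, the share of all genes was 1.83% to 2.86%. Dropping the probe sets prone to read several transcripts also left 1, SLC6A2, for FD 24 hr vs FD 0 hr, against 3.65% of all genes. SLC6A9 and SLC24A1 then have no value, their single probe sets being of that design. In that setting the 1 member for FD 6 hr vs FD 0 hr was SLC24A4, lower, against 1.05% of all genes. For FD 24 hr vs FD 6 hr there were 2, SLC24A4 higher and SLC6A2 lower, against 1.24% of all genes. Quantile normalisation left 0 for FD 6 hr vs FD 0 hr, against 1.31% of all genes, with SLC6A9 at 0.97. For FD 6 hr vs control the count was 2 with the limit at the 50th percentile or with no limit, and 0 with the limit at the 70th. The shares of all genes were 2.57%, 1.66% and 3.33%, in that order. The median for FD 6 hr vs FD 0 hr was 0 with no limit.

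The difference of SLC4A1AP for FD 0 hr vs control turned to -0.11 with the probe set of highest mean and with the median of the probe set differences. SLC9A7 was at -0.64 with the mean of probe sets, -0.40 after dropping probe sets prone to read several transcripts and -0.68 with the median of the probe set differences. SLC1A4 for FD 24 hr vs FD 6 hr was at -0.66 with the probe set of highest mean. Of 73 recomputations of a large difference of a named member, 63 kept the sign and a size of at least 1. For members on 1 probe set (SLC6A9, SLC6A2, SLC24A1 and SLC2A1), other summaries of probe sets return the same value by construction. The count of 63 is therefore no measure of how firm the differences are. Leaving out the 3 members that are not carriers, keeping genes whose probe sets shared a sign and the median of the probe set differences were chosen after seeing the data.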

Other observations

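Among the solute carriers under the limit, SLC16A7 (MCT2), a monocarboxylate carrier with a high affinity for pyruvate, was at 5.83 in the FD 0 hr pool, 5.92 in the FD 6 hr pool and 5.74 in the FD 24 hr pool, against 6.97 in the control pool. Its differences from control were -1.14 for FD 0 hr and -1.23 for FD 24 hr. Of the 7 genes left out by the rule none had a difference of at least 1. The closest was SLC1A3, the glutamate carrier of Müller glia, at 10.26 in the FD 24 hr pool and 11.19 in the FD 6 hr pool, a difference of -0.94.

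Organic anion carriers of the SLCO family were mostly dim, with 8 of 10 measured genes under the limit. SLCO1A2, which carries bile acids and thyroid hormone, was at 8.31 in the FD 0 hr pool, 8.06 in the FD 6 hr pool and 7.30 in the FD 24 hr pool, against 7.21 in the control pool. Among 30 measured ABC transporters, which are driven by ATP, 8 were above the limit and none of these 8 had a difference of at least 1. ABCB11, the bile salt export pump, was at 8.40 in the FD 0 hr pool and 7.53 in the control pool. ABCB1, the drug efflux pump of capillary walls, was under the limit, at 6.64 in the FD 0 hr pool and 5.59 in the control pool.

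Probe sets that name SLC40A1, the iron exporter, together with ORMDL1 were not used, and the brightest of them was at 6.25 to 6.39 on the 4 arrays.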
